A study of Mus musculus with 54 samples.

Results

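The dystrophin-glycoprotein complex was followed through 8 of its genes, *Dmd*, *Utrn*, *Dag1*, *Sgca*, *Sgcb*, *Sgcd*, *Sgce* and *Dtna*, which were matched by NCBI gene number among the 19653 genes of the deposited tables, of which 17824 had a RefSeq symbol. All 8 were listed in all 27 tables. In muscle the complex spans the sarcolemma: dystrophin binds actin inside the cell and β-dystroglycan in the membrane, and α-dystroglycan binds laminin outside through its sugar chains. The sarcoglycans form a membrane subcomplex beside dystroglycan, dystrobrevin and the syntrophins bind dystrophin from inside, and utrophin is a close relative of dystrophin that takes the same place at the neuromuscular junction and in immature muscle. Loss of dystrophin, of some of the sarcoglycans or of the sugars on dystroglycan causes muscular dystrophy.

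RNA was sequenced from H2K mouse myogenic progenitors of 6 lines on days 0, 1 and 2 of differentiation, which the labels give as 0, 24 and 48 h. The lines were wildtype, emerin-null (EMD -/y), and EMD -/y progenitors transduced with lentivirus for wildtype emerin (+EMD) or for the emerin mutants S54F, Δ95–99 or Q133H, which the study made to ask how emerin mutants of Emery–Dreifuss muscular dystrophy act in differentiation. There were 54 samples in 18 groups, each with 3 labelled replicates, but the tables give only 1 value per group, so no spread, error or test was computed here. The labels also speak of technical replicates of biological replicates without saying which library is which. All progenitors had been grown with γ-interferon before differentiation in horse serum. The 4 transduced lines were selected with puromycin, at doses that differed between lines, and the labels add puromycin to the medium of mutant lines in both phases. Each genotype was represented by a single derived population, so a genotype cannot be told apart from the history of its line, and the tables hold no vector-only line.

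Values are the authors' normalized group values. Levels are given as CPM, the value divided by the sum of its column and multiplied by 1000000, averaged over the tables that hold the group. Log2 ratios compare the 2 values of a table as deposited, and a call here means a difference of at least 2-fold with the higher value at least 10. In units of 1000000, the column sums ran from 16.7 to 21.1. Bulk values cannot tell fewer cells of a type from less RNA per cell.

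*Emd*, the targeted gene, had deposited values between 987 and 1962 in wildtype progenitors, against at most 3.52 in EMD -/y progenitors and at most 2.67 in the 4 transduced lines. The wildtype and EMD -/y labels therefore matched the values. The +EMD line also read near 0, and the coding sequence of the vectors is not given, so *Emd* did not check the transduced lines against each other. All 7 myogenic markers were listed, *Pax7* in Q133H at no more than 0.458 CPM, led by *Des* at up to 3108 CPM, and their summed level ran from 1794 CPM in Q133H on day 1 to 7826 in wildtype on day 2. Markers of other cell types were low throughout: the summed level reached 5.19 CPM for 5 fibroblast or fibro-adipogenic genes, 2.78 for 4 endothelial genes, 6.18 for 4 immune genes, 1.30 for the 2 listed Schwann cell genes and 0.613 for 3 adipocyte genes. The fibroblast, immune and adipocyte sums were highest in Q133H on day 2 and the endothelial sum in Q133H on day 1. *Cd68* gave nearly all of the highest immune sum, at 6.17 CPM against 1.17 in wildtype on that day, and *Sox10* was not listed.

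The gene of dystrophin, the actin-binding rod of the complex, was the member that separated the lines most. Its values are per gene and do not tell the long transcript from short ones without the actin-binding domain. *Dmd* was at 2.99, 2.15 and 3.07 CPM on days 0, 1 and 2 in wildtype progenitors, and at 5.66, 5.18 and 4.92 in EMD -/y progenitors. It was at 6.06, 8.65 and 10.4 CPM in Q133H, at 2.42, 1.47 and 1.07 in S54F, and at 0.370, 0.399 and 0.692 in Δ95–99. In +EMD it was at 0.0421, 0.0461 and 0.172 CPM. The lines kept 1 order on all 3 days, Q133H highest, then EMD -/y, wildtype, S54F, Δ95–99 and +EMD, and the highest and lowest of the 18 levels lay 247-fold apart, a figure that rests on the +EMD values near 0. EMD -/y and +EMD, which was made from EMD -/y progenitors, thus stood on opposite sides of wildtype. The mutant lines, made from the same progenitors, also lay on both sides, Q133H above and S54F and Δ95–99 below.

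Against wildtype on the same day, *Dmd* was lower in Δ95–99 by log2 ratios of −2.93, −2.48 and −2.24 on days 0, 1 and 2. It was higher in Q133H by 1.88 and 1.48 on days 1 and 2, and in EMD -/y by 1.21 on day 1, while the other ratios of these lines were 0.97 for Q133H on day 0, or 1.003 with division by the column sums, and 0.85 and 0.68 for EMD -/y on days 0 and 2. S54F moved away from wildtype with time, with ratios of −0.32, −0.55 and −1.43, of which the last was called. In +EMD the ratios were −5.44, −5.09 and −3.86, but they rest on values close to 0. Deposited values that low followed the other group of their table: *Dmd* in +EMD on day 0 was listed at 1.24 beside wildtype and at 0.326 beside +EMD on day 1. The size of the day-0 difference is thus known only roughly, while wildtype stood at 53.5 or above on that day. Over all genes, a group value under 1 differed between tables by a median of 0.47 on the log2 scale, against 0.02 for values from 10 to 100.

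*Dmd* was not called in any transition between days, with 9 of 12 transitions over the minimum value. Its largest of these was 0.84, from day 1 to day 2 in Δ95–99, where the deposited value went from 7.37 to 13.2. In wildtype progenitors the ratio was −0.43 from day 0 to day 1 and 0.67 from day 1 to day 2. From day 0 to day 2, for which there was no table, the levels of S54F gave −1.18, while the others except +EMD lay between −0.20 and 0.90. Over the lines the level of this gene thus spread more widely than it moved with differentiation, +EMD aside, where the values were too low to call.

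**Figure D1:**
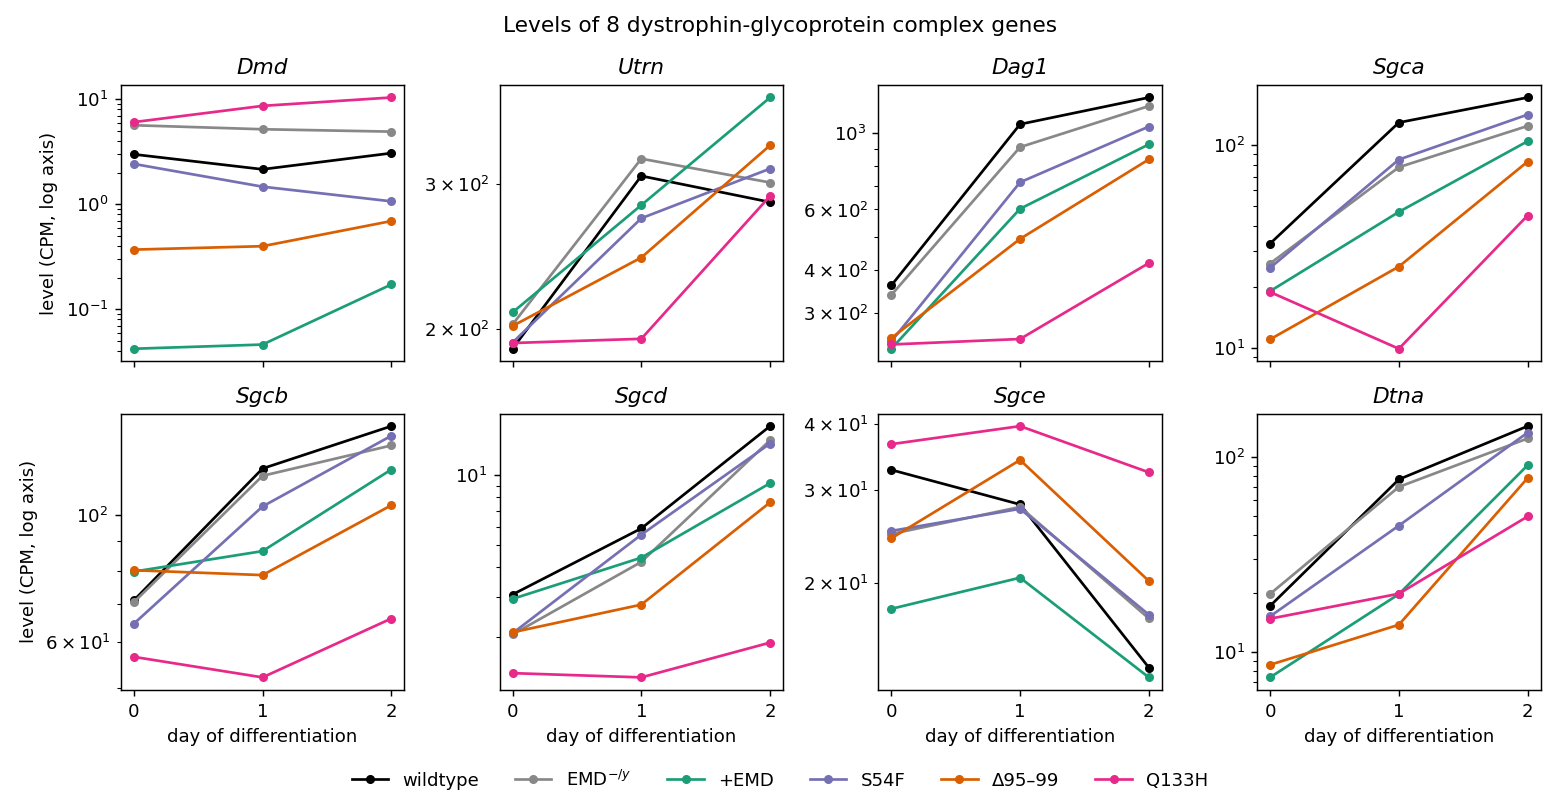
Levels of the 8 genes (y axis, CPM, log axis, a range of its own for each gene) against the day of differentiation (x axis), 1 line per progenitor line and 1 point per group value, with no error available. *Dmd* keeps the lines apart on all 3 days, from 0.0421 in +EMD to 10.4 in Q133H, while *Dag1*, *Sgca*, *Sgcd* and *Dtna* climb from day 0 to day 2 in wildtype and stay low on day 1 in Q133H.

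The length listed for *Dmd* also differed between groups. *Dmd* (gene 13405, chrX:82814664-85205050, plus strand, GRCm38.p6) has 3 coding transcripts in GENCODE M21, of 14910 bases in 79 exons, 4438 bases in 18 exons and 1858 bases in 17 exons. The first starts at the upstream muscle promoter and the others at an internal promoter, which as background gives a short product lacking the actin-binding domain. The tables list 1 length per gene, and tables that shared the second group listed the same length for 99.9% of genes, so the length was read as that of the second group. How it was made is not stated, and wildtype on day 0 was never the second group.

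On day 0 the listed *Dmd* length was 4601 bases in Q133H, 4528 in Δ95–99, 4555 in S54F and 4550 in EMD -/y, near the 4438 bases of the middle transcript. From day 1 to day 2 it went from 5022 to 8771 bases in wildtype, from 4822 to 5967 in EMD -/y and from 4712 to 7039 in S54F. It went from 3285 to 5337 bases in Δ95–99, from 4293 to 5167 in Q133H and from 4496 to 10695 in +EMD. All 6 lines thus had a longer listed length on day 2, and wildtype and S54F exceeded EMD -/y and Q133H, which had the higher *Dmd* levels. Length did not follow level in Δ95–99, where *Dmd* was lower than in S54F but the 5337 bases lay between Q133H and EMD -/y. In wildtype, 20 of 16991 genes, *Dmd* among them, gained in length by a ratio at least as large as the 1.75 of *Dmd*, and 109 of 16826 did so in Q133H, where the ratio was 1.20. The +EMD lengths, 10695 bases also on day 0, rest on the values near 0 given above.

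**Figure D2:**
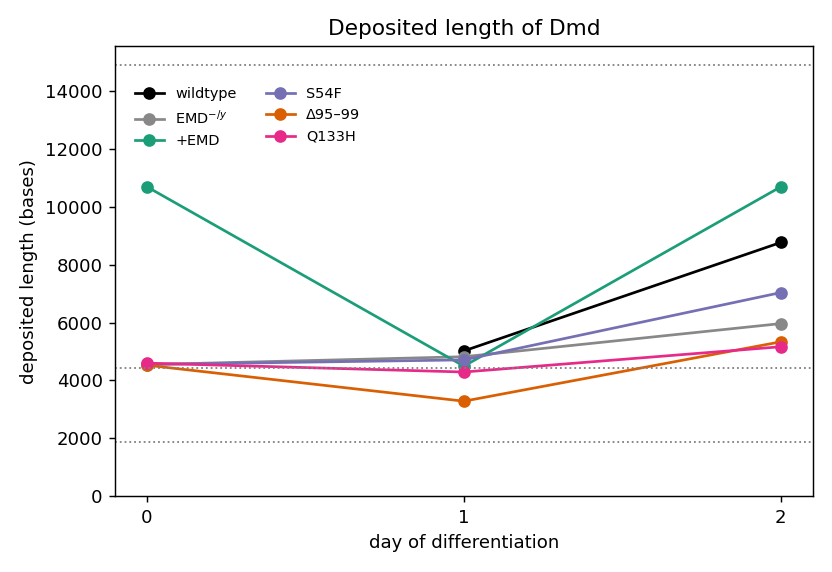
Listed length of *Dmd* in bases (y axis) against the day of differentiation (x axis), 1 point per group and 1 line per progenitor line, with dotted lines at the lengths of the 3 GENCODE coding transcripts. The length is greater on day 2 than on day 1 in all 6 lines, reaching 8771 bases in wildtype and 5167 in Q133H; wildtype has no value on day 0.

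Utrophin, the relative of dystrophin, was encoded by the steadiest of the 8 genes. *Utrn* was at 189, 307 and 285 CPM on days 0, 1 and 2 in wildtype and at 202, 322 and 301 in EMD -/y. It was at 209, 283 and 382 CPM in +EMD, at 192, 272 and 313 in S54F, at 202, 244 and 334 in Δ95–99 and at 192, 195 and 290 in Q133H. Its ratio to wildtype lay between −0.77, in Q133H on day 1, and 0.38, in +EMD on day 2, and it was called in 0 of 15 comparisons with wildtype and 0 of 12 between days. The lines with little *Dmd*, Δ95–99 and +EMD, had day-0 ratios of 0.05 and 0.16 for *Utrn*. On day 1 both were below wildtype, at 244 and 283 CPM against 307, as were S54F and Q133H. By day 2 both were above it, at 334 and 382 CPM against 285, as were the other lines by less. Per kilobase of listed length, wildtype progenitors on day 2 held *Utrn* at 23.0 CPM and *Dmd* at 0.350 CPM, so utrophin transcripts were the more abundant by far in these cultures. The same comparison gave 24.6 and 2.01 in Q133H, the line with the most *Dmd*.

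*Dag1* encodes both dystroglycans, the laminin receptor and its membrane partner, from a single transcript. It was at 361, 1061 and 1269 CPM on days 0, 1 and 2 in wildtype, at 339, 910 and 1198 in EMD -/y and at 236, 603 and 927 in +EMD. It was at 248, 720 and 1044 CPM in S54F, at 254, 493 and 839 in Δ95–99 and at 243, 252 and 419 in Q133H. Wildtype was highest on each day, and all lines but Q133H more than tripled the level by day 2. The ratio to wildtype was called for Δ95–99 on day 1, at −1.24, and for Q133H on days 1 and 2, at −2.18 and −1.84. Per kilobase, *Dag1* was the most abundant of the 8 in wildtype on day 2, at a level per kilobase of 232 CPM, followed by *Sgca* at 98.7, *Dtna* at 41.5, *Sgcb* at 38.3, *Utrn* at 23.0, *Sgcd* at 11.6, *Sgce* at 7.95 and *Dmd* at 0.350.

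Among the 4 sarcoglycan members, the gene of muscle-specific α-sarcoglycan had the widest range of levels over the 18 groups, 17.4-fold against 12.03-fold for *Sgcd*, which rose further from day 0 to day 2 in EMD -/y and S54F and about as far in wildtype. *Sgca* was at 32.7, 129 and 172 CPM on days 0, 1 and 2 in wildtype, at 26.1, 77.9 and 124 in EMD -/y and at 24.8, 84.9 and 142 in S54F. It was at 19.0, 46.9 and 105 CPM in +EMD and at 11.0, 25.2 and 83.0 in Δ95–99. In Q133H it was at 18.9, 9.91 and 45.0 CPM, so day 1 was its lowest point, where the 5 other lines had all passed their day-0 level. From day 0 to day 1 *Sgca* rose by 2.01 in wildtype, 1.60 in EMD -/y, 1.80 in S54F, 1.22 in +EMD and 1.13 in Δ95–99, against a ratio of −0.96 in Q133H. From day 1 to day 2 it rose by 2.08 in Q133H, 1.84 in Δ95–99, 1.40 in +EMD and 1.01 in S54F, against 0.60 in wildtype, and the S54F value was 0.74 with division by the column sums. Against wildtype the ratio was −3.87 in Q133H, −2.48 in Δ95–99 and −1.54 in +EMD on day 1, and −2.15, −1.23 and −0.76 on day 2.

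β-Sarcoglycan and δ-sarcoglycan form the core on which the other sarcoglycans assemble. *Sgcb* was at 70.9, 120 and 143 CPM in wildtype on days 0, 1 and 2 and at 56.6, 52.1 and 66.0 in Q133H, the only line in which it was called against wildtype, with −1.32 on day 1 and −1.37 on day 2. Its other 13 ratios to wildtype lay within 2-fold, and none of its 12 changes between days was called. *Sgcd* was scarcer, at 3.06, 5.89 and 16.2 CPM in wildtype, and at 2.06, 4.23 and 14.1 in EMD -/y, 2.08, 5.53 and 13.6 in S54F and 2.93, 4.41 and 9.21 in +EMD. It was at 2.11, 2.77 and 7.62 CPM in Δ95–99 and at 1.40, 1.35 and 1.90 in Q133H. *Sgcd* rose from day 1 to day 2 in 5 of 6 lines, by 1.63 in wildtype, 1.95 in EMD -/y, 1.55 in S54F, 1.29 in +EMD and 1.58 in Δ95–99, with a ratio of 0.46 in Q133H. In that line *Sgcd* was the member furthest below wildtype on day 2, at −3.30, whereas *Sgca* held that place on day 1.

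*Sgce* encodes ε-sarcoglycan, a relative of α-sarcoglycan found in many tissues, and stood below its day-0 level on day 2 in all 6 lines. It was at 32.7, 28.2 and 13.8 CPM on days 0, 1 and 2 in wildtype and at 36.6, 39.6 and 32.4 in Q133H. In +EMD it was at 17.9, 20.5 and 13.3 CPM. From day 0 to day 1 the ratio was −0.18 in wildtype and between 0.12 and 0.47 in the 5 other lines, and from day 1 to day 2 it was below 0 in all 6, between −0.83 in wildtype and −0.26 in Q133H. From day 0 to day 2 the wildtype levels gave −1.24. None of its 27 ratios within tables was called, although Q133H on day 2 came to 0.97 against wildtype. With values divided by their column sums, that ratio was 1.22 and the wildtype transition from day 1 to day 2 was −1.02, so both would then be called.

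α-Dystrobrevin, which binds dystrophin and the syntrophins, was encoded by the member with the largest rise in wildtype progenitors. *Dtna* was at 17.3, 77.0 and 144 CPM on days 0, 1 and 2 in wildtype, at 19.9, 70.4 and 125 in EMD -/y and at 15.3, 44.6 and 134 in S54F. It was at 7.42, 19.8 and 91.0 CPM in +EMD, at 8.61, 13.8 and 78.2 in Δ95–99 and at 14.8, 19.9 and 49.7 in Q133H. All lines rose by day 2, but wildtype and EMD -/y took the larger step by day 1, with 2.18 and 1.83, and +EMD and Δ95–99 after it, with 2.43 and 2.64. The second step was also the larger in S54F, with 1.57 and then 1.85, and in Q133H, with 0.40 and then 1.30. On day 1 the ratios to wildtype were −2.61 in Δ95–99, −2.06 in Q133H and −2.03 in +EMD, against −0.82 in S54F and −0.12 in EMD -/y. On day 2 they were −1.07, −1.78 and −0.71 in the first 3 of these, and −0.07 and −0.15 in the last pair. With values divided by their column sums, Δ95–99 had ratios of −0.99 on day 0 and −0.88 on day 2, and the transitions from day 1 to day 2 were 0.90 in wildtype and 0.82 in EMD -/y, so these 4 calls would be lost. The listed length of *Dtna* was shorter on day 2 than on day 1 in all 6 lines, from 3717 to 3481 bases in wildtype and from 5289 to 3315 in Q133H.

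**Figure D3:**
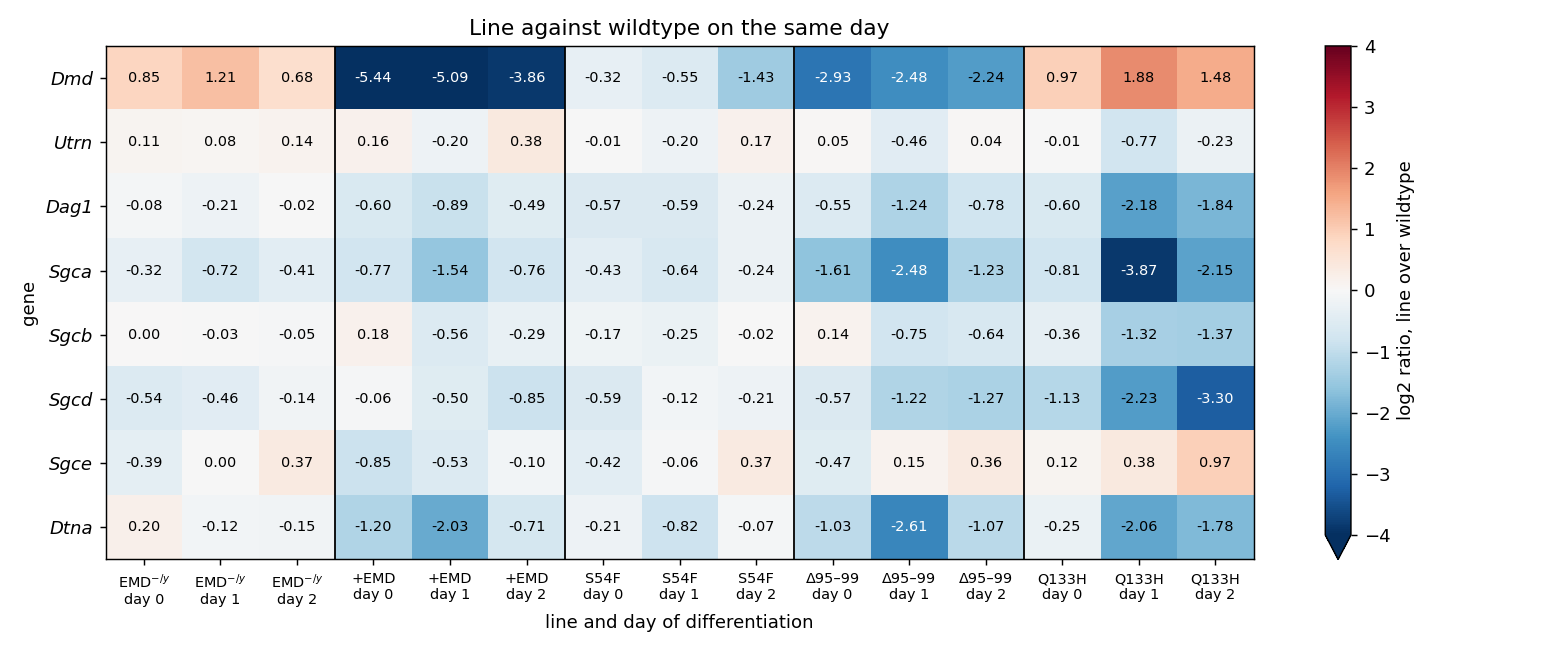
Log2 ratio of each line to wildtype on the same day (colour and printed value, scale cut at 4 in size) for the 8 genes (rows) and the 5 lines by day (columns). *Utrn* stays between −0.77 and 0.38, *Dmd* ranges from −5.44 to 1.88, and Q133H and Δ95–99 are low on day 1 for *Dag1*, *Sgca*, *Sgcd* and *Dtna*.

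Counted by line, the 8 genes stood closest to wildtype in EMD -/y and S54F progenitors. In EMD -/y, 0 were called on day 0, 1 on day 1 and 0 on day 2, while 9.12%, 7.68% and 7.98% of all genes over the minimum value were called in either direction. In S54F, 0, 0 and 1 were called, against 12.3%, 12.5% and 11.1% of all genes. In both lines the share of the 8 was thus near or under the background.

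In the 3 other lines more members were called, mostly as lower, but 1 of 8 in Q133H on day 0 and in +EMD on day 2 lay under the share of all genes. In Δ95–99, 3 of 8 were lower on day 0, 5 on day 1 and 4 on day 2, against 12.7%, 21.3% and 22.5% of all genes called in either direction. In Q133H, 1 was lower on day 0, 5 were lower and 1 higher on day 1, and 5 were lower and 1 higher on day 2, against 15.1%, 24.6% and 33.9% of all genes. In +EMD, 2, 3 and 1 were lower, against 17.3%, 20.1% and 18.8%. The +EMD line, with wildtype emerin, had more calls than its parent EMD -/y on each day, among the 8 and among all genes alike. All 15 comparisons drew on the same wildtype groups. In all, 30 of 120 comparisons were lower and 3 higher, all 3 of them *Dmd*, so 27.5% were called, against 16.5% over all genes. Without Q133H, left out after its values were seen, 19 were lower and 1 higher, or 20.8% against 14.5% of all genes in the same comparisons.

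Between days, every called change of a member was a rise. In wildtype, 3 of 8 rose from day 0 to day 1 and 2 from day 1 to day 2, against 23.3% and 20.3% of all genes called in either direction. In EMD -/y, 4 and 2 rose, against 21.9% and 19.2%. In S54F, 4 and 3 rose, against 17.1% and 21%. In +EMD 3 of the 7 genes over the minimum rose in each step, against 17.8% and 21.1%. In Δ95–99, 1 of 7 and then 3 of 8 rose, against 14.5% and 14.7%. In Q133H, 0 and then 2 of 8 rose, against 12.6% and 11.1%. The median ratio of the 8 from day 0 to day 1 was 0.87 in wildtype and 0.03 in Q133H, while the median over all genes was −0.01 in both.

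Subtracting the wildtype change from that of a line gave the size of such differences between lines. From day 0 to day 1, Q133H fell short of the wildtype change by 2.97 for *Sgca*, where the line's own ratio of −0.96 stood against 2.01. The difference was −1.78 for *Dtna*, −1.54 for *Dag1* and just past −1 for *Sgcd* in Q133H, and −1.53 for *Dtna* in Δ95–99. From day 1 to day 2 some differences were at least 1 above 0. They were 1.48 for *Sgca* in Q133H, 1.24 for *Sgca* and 1.54 for *Dtna* in Δ95–99, and 1.34 for *Dtna* in +EMD. *Sgcd* in Q133H kept falling behind, with −1.17. These 10 of 80 differences were at least 1 in size, and 11 were when taken from the comparisons with wildtype. In Q133H from day 1 to day 2, *Dag1* and *Dtna* gained only 0.29 and 0.20 on the wildtype change.

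Genes of muscle differentiation are given for comparison. Of 10 such genes, all 10 rose from day 0 to day 1 in wildtype, 9 in +EMD and 8 in each of S54F and EMD -/y, but 0 in Δ95–99, where 1 fell, and 0 in Q133H, where 6 fell. From day 1 to day 2, all 10 rose in both Δ95–99 and Q133H, 9 in +EMD and 8 in each of wildtype, EMD -/y and S54F. Over all 12 transitions 79.2% of the values of this list were called, against 17.9% of all genes, and against wildtype 44%, against 16.5%. *Mymk*, the fusion protein myomaker, was at 895 CPM on day 1 in wildtype, 124 in Δ95–99 and 40.5 in Q133H. *Actn2*, the Z-disc α-actinin, was at 393, 7.97 and 7.79 CPM in the same groups. *Mef2c*, a transcription factor of muscle genes, was at 216, 5.37 and 23.6 CPM, and at 9.46 in +EMD.

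Against wildtype on day 1, *Ckm*, muscle creatine kinase, had ratios of −4.81 in Δ95–99, −6.93 in Q133H and −2.33 in +EMD. *Myh3*, embryonic myosin heavy chain, had −4.15, −5.17 and −2.46, and −1.11 in S54F. *Tnnt3*, fast troponin T, had −3.33, −4.84 and −1.02, *Acta1*, skeletal actin, −3.47, −4.41 and −1.53, and *Ttn*, titin, −3.15, −3.17 and −1.51. Such values depended on the table: in Q133H on day 1 *Ckm* ran from 0.903 to 3.95 CPM between tables, the lowest being the one beside wildtype, and *Acta1* from 168 to 346 CPM, so the sizes of these ratios are approximate. *Mymx*, the fusion peptide myomixer, was higher than wildtype on day 0 in EMD -/y, S54F, +EMD and Δ95–99, by 1.42, 1.41, 1.29 and 1.15, but lower on day 1 in Δ95–99 and Q133H, by −1.40 and −4.48. The median ratio of the 10 genes to wildtype on day 1 was −4.66 in Q133H and −3.40 in Δ95–99, beyond the members' medians of −1.69 and −1.23. How far the members' differences go with the extent of differentiation was not tested.

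The other 16 genes of the complex included further subunits and their neighbours at the membrane. Over the comparisons with wildtype, 200 gene values passed the minimum, of which 49 were lower and 17 higher, or 33% against 16.5% of all genes, and between days 49 of 156 rose and 10 fell, or 37.8% against 17.9%. *Cav3*, muscle caveolin, was the gene of this list furthest from wildtype. It was at 27.8, 98.8 and 313 CPM on days 0, 1 and 2 in wildtype, at 6.11, 4.70 and 64.4 in Δ95–99, at 11.8, 1.56 and 15.04 in Q133H and at 1.31, 3.29 and 44.4 in +EMD. It was lower in these 3 lines on all 3 days and in S54F on day 1, with ratios down to −6.41. *Dysf*, dysferlin of membrane repair, was lower on day 1 in the same 4 lines, by −2.17, −2.47, −1.54 and −1.11 in Δ95–99, Q133H, +EMD and S54F.

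Genes of the β-syntrophins, adaptors that bind dystrophin and dystrobrevin, differed. *Sntb1* was at 76.7, 286 and 483 CPM on days 0, 1 and 2 in wildtype and at 43.1, 27.7 and 160 in Q133H. *Sntb2* was higher than wildtype on day 2 in Δ95–99, Q133H and +EMD, by 1.16, 1.16 and 1.09. *Nos1*, a nitric oxide synthase bound to the complex, was low throughout, at most 4.92 CPM in +EMD on day 2, where it was higher than wildtype by 1.505. It was below wildtype on day 0 by −1.67 in Δ95–99, −2.47 in Q133H, −1.80 in S54F and −1.12 in +EMD. On day 1 it was again lower in Δ95–99, Q133H and S54F. On day 2 *Nos1* was at 0.192 CPM in Q133H and 0.334 in S54F, against 1.64 in wildtype.

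Genes that build the sugar chains of α-dystroglycan were seldom called. Of 256 values over the minimum in the comparisons of this list of 18 genes with wildtype, 3 were lower and 1 higher, or 1.56% against 16.5% of all genes, and between days 3 of 205 rose and 3 fell, or 2.93% against 17.9%. The 3 lower values were all *Pomgnt2*, an enzyme of the laminin-binding glycan, in +EMD, with ratios of −2.48, −1.52 and −1.55 on days 0, 1 and 2. *Pomgnt2* was at 1.13, 4.36 and 5.39 CPM there, against 6.38, 11.9 and 15.4 in wildtype. *Dpm3*, of dolichol-phosphate mannose synthesis, fell by 1.03 from day 0 to day 1 in wildtype, and *B4gat1*, of the same glycan, had a ratio of 0.86 from day 1 to day 2. The list's median ratio to wildtype on day 1 was −0.02 in Q133H, where that of the 8 members was −1.69, and on day 2 the pair were −0.34 and −1.57.

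The integrin adhesion system, the other link from laminin to the cytoskeleton, had 18 lower and 8 higher values of 210 against wildtype, or 12.4%, under the 16.5% of all genes, and 29 of 168 rose and 3 fell between days, or 19%, near the 17.9% of all genes. *Itgb1bp2*, melusin of striated muscle, supplied 10 of the 18. It was at 20.2, 93.6 and 343 CPM on days 0, 1 and 2 in wildtype, at 1.94, 1.61 and 83.0 in Δ95–99, at 7.96, 1.98 and 32.3 in Q133H and at 0.933, 3.58 and 94.2 in +EMD. *Ank3*, ankyrin-G, was higher than wildtype on day 0 in Δ95–99, +EMD and S54F, by 1.14, 1.38 and 1.07, and on day 2 in Δ95–99, +EMD and Q133H, by 1.01, 1.12 and 1.02. *Synm*, synemin, rose from day 0 to day 1 in all 6 lines, by 2.65 in wildtype and 1.63 in Q133H, and *Tln2*, talin of muscle attachments, rose by 1.26 in wildtype and fell by 1.37 in Q133H.

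Likeness was measured as Pearson's r over the 18 groups on log2(level in CPM + 0.1), a description in which groups share lines and days. Among *Dag1*, *Sgca*, *Sgcb*, *Sgcd*, *Dtna* and *Utrn*, r lay between 0.76 for *Utrn* with *Sgcd* and 0.95 for *Dag1* with *Sgca*, and was 0.92 for *Sgca* with *Dtna*. *Dmd* had r of −0.03 with *Dag1*, 0.01 with *Sgca* and −0.03 with *Mymk*, whereas *Sgca* had 0.97 with *Mymk*. *Sgce* had r of −0.59 with *Sgca* and 0.48 with *Dmd*.

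Of 12761 other genes, those most like *Dmd* were *Pcdhgb1* and *Irx1*, with r of 0.96 and 0.95. Most like *Dag1* were *St3gal5* and *Ccdc141*, both at 0.98, most like *Sgca* were *Baiap2l1* at 0.99 and *Asb2* at 0.98, and the gene most like *Dtna* was *Myl6b* at 0.98. For *Utrn* these were *Dnal1* and *Nisch*, at 0.97 and 0.96, for *Sgcb* *Traf3ip3* and *Cap2*, at 0.97 and 0.96, for *Sgcd* *Mpc1* and *Rapgef1*, both at 0.97, and for *Sgce* *Cyp4f16* and *Vav3*, both at 0.95.

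RefSeq (GRCm38.p6) gave 8 promoter windows for 6 of the 8 genes, and none for *Sgce* and *Dtna*. The 250 bases before each start were searched on both strands for the E-box CANNTG, the letters that myogenic helix-loop-helix factors bind, and for the M-CAT CATTCC, of which no match below overlapped an E-box. E-boxes stood in 66.2% of all 32851 windows and M-CAT in 12.6%. *Sgca* held 1 E-box, *Sgcd* 2, the upstream *Dmd* window 2, the *Utrn* window 7, the overlapping *Dag1* windows a shared 1, and *Sgcb* and the internal *Dmd* window 0. The only M-CAT was in *Sgcd*. The windows of *Utrn* (chr10:12861736-12861985) and *Sgcd* (chr11:47379326-47379575) lay inside their genes, which reach 12869888 and 47989451 on the minus strand. The upstream *Dmd* window also lay inside its gene, so these counts do not cover the outermost starts. A match is a description of letters, not a bound site. The window of *Sgca* and the first of *Dag1*, genes with r of 0.95, are shown with both windows of *Dmd*, which did not follow them; capitals mark E-boxes, and each runs 5′ to 3′ on the gene's strand.
*Sgca*, chr11:94976328-94976577, minus strand: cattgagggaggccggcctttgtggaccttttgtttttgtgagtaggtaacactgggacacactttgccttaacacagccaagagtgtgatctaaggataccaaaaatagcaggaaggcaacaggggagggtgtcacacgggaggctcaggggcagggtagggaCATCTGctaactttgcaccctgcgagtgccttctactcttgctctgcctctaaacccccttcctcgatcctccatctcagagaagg
*Dag1*, chr9:108263959-108264208, minus strand: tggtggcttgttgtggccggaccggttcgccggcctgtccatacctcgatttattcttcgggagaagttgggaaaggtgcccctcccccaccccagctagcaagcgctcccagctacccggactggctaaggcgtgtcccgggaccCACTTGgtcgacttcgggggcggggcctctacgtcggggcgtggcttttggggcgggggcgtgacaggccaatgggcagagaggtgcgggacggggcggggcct
*Dmd* upstream, chrX:82948620-82948869, plus strand: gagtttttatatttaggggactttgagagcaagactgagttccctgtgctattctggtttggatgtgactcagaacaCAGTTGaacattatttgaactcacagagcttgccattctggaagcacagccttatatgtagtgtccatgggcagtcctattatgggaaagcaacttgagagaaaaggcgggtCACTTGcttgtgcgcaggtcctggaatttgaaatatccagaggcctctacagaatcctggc
*Dmd* internal, chrX:85048045-85048294, plus strand: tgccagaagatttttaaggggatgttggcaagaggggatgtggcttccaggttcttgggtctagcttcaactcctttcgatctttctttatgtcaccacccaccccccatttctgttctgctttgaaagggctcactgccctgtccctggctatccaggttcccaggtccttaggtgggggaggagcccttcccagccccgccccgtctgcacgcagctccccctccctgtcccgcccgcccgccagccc
The upstream *Dmd* window lay beside the start of the 14910-base transcript, and the internal window lay before the starts of the 4438-base and 1858-base transcripts at position 85048413.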

How the data were processed

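Poly-A RNA of 54 samples was sequenced by the authors, who filtered and mapped the reads with HISAT2 to mm10 and compared pairs of groups with DESeq2. The deposited signal values are normalized group values, 2 per table, with a gene length, and 0 columns of the 27 tables give single samples. Group values were mostly drawn towards the other group of the table, by sizes that were largest at low values. With the other groups at least 2-fold apart, 98.1% of values under 1 and 93.2% of those of 100 or more were shifted towards them. The median difference between tables, over all values, was 0.47 and 0.000835 on the log2 scale. Exceptions included high values and shifts away from the other group. In Q133H on day 1, *Ckm* was lowest, at 0.903 CPM, beside wildtype at about 102 CPM. *Acta1* ran from 168 to 346 CPM between tables in that group. The tables also hold the authors' log2 fold changes, p-values, adjusted p-values and calls, which were not used.

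Ratios, levels, counts of calls and likeness were computed with Python 3.11.15, numpy 2.4.6 and pandas 2.3.3, and plotted with matplotlib 3.10.9; the calling was tested on simulated data. No test was run, as the value columns give no single samples. Depth per sample is unknown. The design named the values means; they were used as deposited. The members and lists were chosen with earlier results of these data known. Named genes were the 8 members, *Emd*, genes of a list called in 1 direction in at least 3 of 5 lines on 1 day, and the 3 of each list with the largest wildtype change between days, with the 2 genes most like each member; some genes that met these rules are not reported here, though list counts include them. Alternatives were a fold of 1.5 or 3, no minimum, a minimum of 50, a pseudocount of 1, division by the column sum and centring on the median ratio.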

Additional observations from a re-analysis of the deposited data

How the results depend on the processing

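No paired analysis was possible because the columns carry no replicate values, and for the same reason no replicate could be left out. Of 8 members over 27 tables, no called ratio changed sign with a pseudocount, division by the column sum or centring, and 8 ratios crossed the 2-fold limit, all of them with division by the column sum. That scaling lowered ratios by up to 0.27 on the log2 scale (S54F, day 1 to day 2) and raised those of Q133H against wildtype on day 2 by 0.25, while the median ratio of all genes lay between −0.02 and 0.02 without it.

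Against wildtype, the 30 lower values of members became 48 at 1.5-fold and 18 at 3-fold, and the 3 higher values became 7 and 1, and 5 with division by the column sum. Chosen after seeing the data, leaving out Q133H gave 19 lower and 1 higher, and leaving out *Dmd* gave 0 higher. Between days, the 30 rises became 52 at 1.5-fold and 13 at 3-fold, and the 0 falls became 4 at 1.5-fold and 1 with division by the column sum. Calls of the other complex genes against wildtype went from 66 to 36 at 3-fold, and between days from 59 to 93 at 1.5-fold and 26 at 3-fold. For glycosylation genes the 4 calls against wildtype became 26 at 1.5-fold, 2 at 3-fold and 9 with no minimum, and the 6 between days became 44, 1 and 11. With no minimum the glycosylation calls against wildtype were 6 higher and 3 lower, and those between days 3 higher and 8 lower; with division by the column sum they were 2 higher and 3 lower, and 2 higher and 4 lower; with centring those between days were 3 higher and 2 lower. For integrin genes the 26 became 59 at 1.5-fold and 12 at 3-fold, and the 32 between days became 55 and 18. The fold settings move counts by their construction.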

Other observations

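*Pax7*, a marker of muscle stem cells among the myogenic markers, was near 0 in the Q133H line, at 0.179, 0.329 and 0.458 CPM on days 0, 1 and 2. It was at 20.5, 7.40 and 2.72 CPM in wildtype and at 116, 109 and 38.3 in +EMD. The gene was chosen for mention after its values were seen.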
